A study of Mus musculus with 22 samples.

Results

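The 49 genes described here are the nuclear genes of respiratory complex I: every row of the 3 gene count tables used whose symbol begins with Nduf and then a, b, c, s or v, apart from symbols that carry the pseudogene suffix. They were 49 of 34866 rows in the 2 culture tables and 47 of 23911 rows in the cartilage table, and 46 of them are annotated as protein-coding and 3 (Ndufa11b, Ndufb4c and Ndufs6b) as pseudogenes. The mouse samples differed in Dnmt1, the maintenance DNA methyltransferase. Control samples carried the floxed Dnmt1 allele (labelled Dnmt1 flox, or flox in cartilage), and mutant samples, labelled cKO, were Prrx1-Cre;Dnmt1 flox/flox in culture and cKO in cartilage. Primary chondrocytes from knee cartilage of mice at postnatal day 3 to 5 were measured without treatment (day 0, with 3 samples of each genotype) and on day 3 of treatment with BMP2, a growth factor that drives their maturation, at 100 ng/µl (4 samples of each genotype). Cartilage of mice at postnatal day 5, treated with collagenase to take off connective tissue, gave 4 control and 4 cKO samples, with replicates 1 and 2 of each genotype male and replicates 3 and 4 female. The culture labels name no sex. Prrx1 drives Cre in the mesenchyme of the limb bud, so cells other than chondrocytes also carry the deletion.

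Complex I is the first enzyme of the mitochondrial respiratory chain. It takes electrons from NADH, passes them along iron-sulfur clusters to ubiquinone and pumps protons across the inner membrane. Its peripheral arm is built of an N module, which oxidises NADH, and a Q module, which reduces ubiquinone, and its membrane arm holds the subunits encoded by mitochondrial DNA (the mt-Nd genes) among nuclear accessory subunits. The Ndufaf proteins are assembly factors, which help to build the enzyme without staying in it. Chondrocytes of the growth plate are avascular and lean on glycolysis. Ndufa4, long counted in complex I, is now placed in complex IV, and its relative Ndufa4l2 is known as a target of hypoxia signalling.

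Promoters were read from RefSeq on GRCm38.p6, because several members moved together in culture and the deleted enzyme copies methylation at CpG sites. Of the 49 genes, 40 matched an entry there, with 42 promoters of 250 bases before and 50 bases after the start. The median member promoter held 20.5 CpG, against 7 over all 32851 promoters of that length, and the ratio of observed to expected CpG was 0.828 against 0.384. The consensus of NRF1, an activator of respiratory chain genes, stood in 5 of the 42 (11.9%) against 2.27% of all promoters, searched on both strands like the other motifs. AAGATGG, core letters of YY1, stood in 19% against 6.34%, CCGGAAG, letters of ETS factors, in 14.3% against 8.86%, and TATAAA in 11.9% against 13.6%. The NRF1 consensus and CCGGAAG themselves hold CpG, and these shares were not adjusted for the higher CpG count of the member promoters. The spelling of the NRF1 and YY1 motifs was changed once after a first count. Such a match describes letters in the window and nothing about binding, and no methylation was measured here. The 250 bases before the start are printed for the 3 members that mark the range of the results: Ndufaf2 rose in both cultures, Ndufa6 fell in both, and Ndufaf4 fell at day 0 and was higher in cartilage. Capitals mark CpG in the first pair and the match to the NRF1 consensus in the last.
Ndufaf2, chr13:108158626-108158875, minus strand, with 20 CpG: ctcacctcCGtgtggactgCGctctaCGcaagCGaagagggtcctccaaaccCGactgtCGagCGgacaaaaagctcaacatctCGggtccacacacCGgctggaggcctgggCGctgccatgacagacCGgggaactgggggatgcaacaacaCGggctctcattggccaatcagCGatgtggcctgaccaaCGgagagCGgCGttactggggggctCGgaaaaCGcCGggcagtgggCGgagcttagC
Ndufa6, chr15:82354292-82354541, minus strand, with 18 CpG: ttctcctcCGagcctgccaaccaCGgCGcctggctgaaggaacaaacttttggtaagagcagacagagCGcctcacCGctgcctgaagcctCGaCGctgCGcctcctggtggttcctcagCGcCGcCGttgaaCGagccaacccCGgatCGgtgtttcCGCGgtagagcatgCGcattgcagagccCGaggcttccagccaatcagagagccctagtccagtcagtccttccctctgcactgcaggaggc
Ndufaf4, chr4:24897833-24898082, plus strand: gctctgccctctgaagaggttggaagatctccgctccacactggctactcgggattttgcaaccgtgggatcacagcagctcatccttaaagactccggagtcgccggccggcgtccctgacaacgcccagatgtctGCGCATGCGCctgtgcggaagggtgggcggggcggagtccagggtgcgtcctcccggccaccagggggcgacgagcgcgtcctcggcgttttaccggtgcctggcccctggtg
Ndufaf2 and Ndufa6, which moved in opposite directions in culture, both had CpG-dense promoters: with the 50 bases after the start included they held 25 and 27 CpG.

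Total counts per library were 41749327 to 51741478 at day 0, 14434197 to 18918714 at day 3 and 1100198 to 1888896 in cartilage. Dnmt1 was lower in cKO in all 3 settings, by a log2 fold change of -2.44 at day 0, -1.41 at day 3 and -1.66 in cartilage. The day 3 library labelled cKO replicate 4 stood apart from the other 3 cKO libraries of that day, with counts that gave a chi-square of 134.2 to 149.5 for each degree of freedom when set against them. The 7 chondrocyte markers (Col2a1, Acan, Sox9 and others) were all lower in cKO in both cultures. At day 0 they summed to between 121953 and 128927 counts scaled to a common library total (CPM) in control libraries and between 45485 and 55204 CPM in cKO libraries. At day 3 the sums lay between 84217 and 102985 CPM in control and between 1183 and 15928 CPM in cKO libraries, lowest in cKO replicate 4. Skeletal muscle markers summed to 1.15 to 1.90 CPM in control and 111.5 to 1631 CPM in cKO cultures at day 3. Adipocyte markers summed to 1.39 to 2.88 CPM in control and 27.3 to 42.1 CPM in cKO cultures that day. Fibroblast and tendon markers were also higher in cKO at day 3 (6282 to 7893 against 8772 to 10319 CPM). At day 0 they were lower in cKO (2636 to 4147 against 1995 to 2185 CPM). Endothelial and pericyte markers were lower in cKO at day 3 (523 to 646 against 120 to 185 CPM) and at day 0 (733 to 758 against 349 to 364 CPM). Sums of osteoclast and of blood and immune markers overlapped. The part of these cell types in the results below was not tested. In such bulk samples, fewer cells of a type and less RNA per cell cannot be told apart.

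In untreated cultures most complex I genes were slightly lower in cKO than in control chondrocytes, relative to the other genes tested. Not all falls this small were seen in TPM, a scaling without TMM factors given below. Which scaling is nearer to the true levels was not tested. Of 47 members tested, 26 fell and 3 rose (edgeR's quasi-likelihood test with Benjamini-Hochberg adjustment over all genes, adjusted p under 0.05). Over all 15530 genes tested, 64.5% were called, 33% higher and 31.6% lower, so the share of members called (61.7%) was near the background. By direction, 55.3% of the members fell and 6.38% rose. The log2 fold change was negative in 39 of 47 members (83%) and in 49.1% of all genes, and its median was -0.15 against 0.01 over all genes tested. With all 14 cultures in 1 fit, 15 members were called at day 0, all of them among the 29. The changes were small, with a median SE of 0.0498, and the smallest called change was 0.11 on the log2 scale. Control and cKO libraries did not overlap for 35 of 47 members (6 higher and 29 lower in cKO), the 29 called ones among them, and for 70.3% of all genes (35.9% higher and 34.4% lower). The members summed to 1857 to 1898 CPM in the control libraries and to 1698 to 1764 CPM in the cKO libraries.

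Among the N module, which carries the NADH site, 5 of 10 members fell and 1 rose at day 0. That was 60% called, against 64.5% of all genes (33% higher and 31.6% lower). Ndufv3, a small accessory subunit of the flavoprotein, fell by 0.39 on the log2 scale (SE 0.07, adjusted p = 0.000683). Its level was 28.1, 29.2 and 28.3 CPM in the control and 24.1, 20.8 and 20.3 CPM in the cKO libraries, so the groups did not overlap. Ndufs6, Ndufa2, Ndufa6 and Ndufa7 also fell, by 0.26 to 0.31 on the log2 scale. Ndufa12, an accessory subunit at the junction with the Q module, rose from 34.5, 34.7 and 35.7 CPM to 40.2, 36.3 and 38.9 CPM. That was a log2 fold change of 0.14 (SE 0.05, adjusted p = 0.0312), a small rise that 8 of its 11 alternative settings did not call. The core subunits that bind the flavin and clusters did not pass the test: Ndufv1 was at 0.01, Ndufv2 at -0.03 and Ndufs1 at -0.05 on the log2 scale.

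In the Q module 4 of 6 members fell, the core subunits Ndufs3 and Ndufs8 among them. In either direction 83.3% of this module was called, against 64.5% of all genes (31.6% lower). Ndufs3 fell by 0.36, Ndufs8 by 0.31, Ndufa5 by 0.22 and Ndufa9 by 0.13 on the log2 scale. Ndufs7, another core subunit, was at -0.03 and not called. Of the 49 members, 16 overlap a protein-coding gene on the opposite strand in the GENCODE M21 annotation of GRCm38, and whether the authors' counting used the strand is not given in the sources used here.

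In the membrane arm no member rose at day 0. Near the Q module 5 of 9 members fell (55.6%), and all 9 had a negative log2 fold change. Of all genes 64.5% were called, 31.6% lower. Ndufa13, also known as GRIM-19, fell most: it was at 51.0, 50.6 and 50.8 CPM in control and 39.6, 39.1 and 37.2 CPM in cKO libraries. The log2 fold change was -0.40 (SE 0.04, adjusted p = 2.45e-05), and the control libraries lay within 1 CPM of each other, well above the cKO libraries. Ndufa1, Ndufc1, Ndufa10 and Ndufa8 fell by 0.18 to 0.26 on the log2 scale. In the distal part, next to the proton-pumping mt-Nd4 and mt-Nd5 subunits, 8 of 12 members fell (66.7%), from Ndufb4c at -0.38 to Ndufb9 at -0.14. Ndufb4c is a processed pseudogene. Its level per exon length in control cultures was 238.2 TPM (390 bases of annotated exon), against 19.6 TPM for Ndufb4 (1916 bases). Reads of such near-identical copies can be split by the counting, so both values are uncertain.

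The assembly factors moved apart. Ndufaf2, a relative of Ndufa12 that holds its place until late in assembly, was at 13.5, 13.5 and 12.1 CPM in control and 26.3, 23.3 and 26.3 CPM in cKO libraries at day 0. It rose by 0.96 on the log2 scale (SE 0.07, adjusted p = 2.73e-06), the largest rise among the members, with no overlap. Ndufaf3, which works with Ndufaf4 on the early Q module, was at 6.57, 7.76 and 6.31 CPM in control and 4.58, 5.00 and 3.79 CPM in cKO libraries. It fell by 0.63 on the log2 scale (SE 0.13, adjusted p = 0.00192), and every cKO library was lower than every control library. Ndufaf4 was at 32.2, 34.2 and 33.7 CPM in control and 27.4, 28.8 and 30.8 CPM in cKO libraries, and fell by 0.20 (SE 0.05, adjusted p = 0.00869), again without overlap. The other 5 assembly members, Ndufaf1, Ndufaf5, Ndufaf6, Ndufaf7 and Ndufaf8, were between -0.15 and 0.11 and were not called. Ndufaf2 and Ndufaf3 overlap Smim15 and Impdh2 on the opposite strand, and both of those rose at day 0, by 0.36 and 0.22 on the log2 scale.

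**Figure D1:**
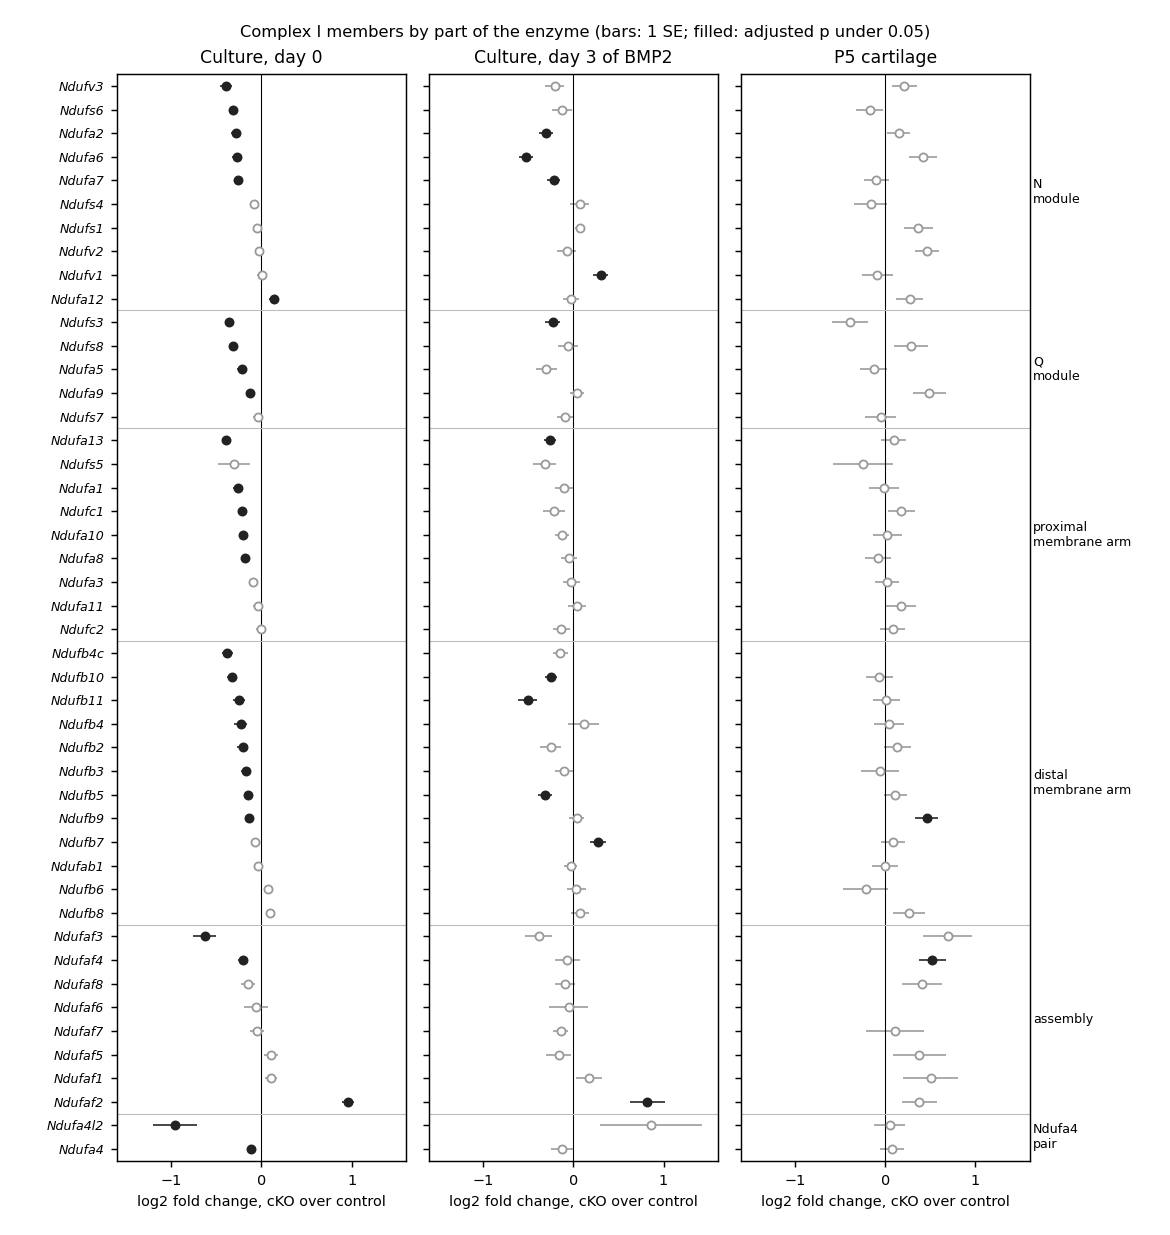
Log2 fold change of cKO over control (horizontal axis) for 46 members in culture and 44 in cartilage (vertical axis, grouped by part of the enzyme) in day 0 cultures, day 3 cultures and cartilage. Points are estimates with 1 SE, filled where the adjusted p was under 0.05. At day 0 39 of 46 points lie left of 0, and in cartilage 30 of 44 lie right of it.

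After 3 days of BMP2 fewer members were called than at day 0, and a smaller share than of all genes in either direction. Of 47 members tested, 8 fell and 4 rose (25.5%), against 48.1% of the 13924 genes tested (25.5% higher and 22.6% lower). By direction, 17% of the members fell and 8.51% rose. The log2 fold change was negative in 33 of 47, with a median of -0.10 against 0.01 over all genes. Standard errors were larger than at day 0, with a median of 0.0976. The libraries did not overlap for 13 members (4 higher and 9 lower), and for 47.9% of all genes (25.2% higher and 22.7% lower). Summed over the members, control libraries held 1786 to 2113 CPM and cKO libraries 1824 to 1935 CPM, with overlap.

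Among the called members Ndufaf2 again rose most. It was at 13.7, 10.98, 11.3 and 13.99 CPM in control and 18.7, 19.3, 18.8 and 31.5 CPM in cKO libraries at day 3. It rose by 0.82 on the log2 scale (SE 0.19, adjusted p = 0.00761). All 4 cKO libraries lay above all control libraries, and cKO replicate 4 lay far above the other 3. Without that library the log2 fold change was 0.60 and the adjusted p 0.00122.

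A pair of members that were not called at day 0 rose at day 3. Ndufv1, which holds the flavin that takes electrons from NADH, was at 62.5, 52.4, 54.5 and 55.6 CPM in control and 68.4, 76.5, 67.3 and 65.2 CPM in cKO libraries. It rose by 0.30 (SE 0.08, adjusted p = 0.0128), with all cKO libraries above all control libraries. Between the days its genotype effects differed by 0.27, which was not called (adjusted p = 0.119). Ndufb7, an accessory subunit of the distal membrane arm on the side of the intermembrane space, was at 37.7, 31.4, 29.9 and 34.0 CPM in control and 38.1, 42.1, 40.8 and 39.8 CPM in cKO libraries. It rose by 0.27 (SE 0.08, adjusted p = 0.0258), the groups being close but not overlapping, and 5 of the 8 fits that each left out a library did not call it.

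Among the members that fell, Ndufa6 changed most. This accessory subunit of the peripheral arm was at 48.7, 44.8, 43.9 and 51.0 CPM in control and 31.2, 32.4, 35.1 and 32.3 CPM in cKO libraries. It fell by 0.52 on the log2 scale (SE 0.07, adjusted p = 0.000632), with a gap between the groups. Ndufb11, encoded on the X chromosome, was at 81.6, 77.7, 68.0 and 82.3 CPM in control and 54.0, 57.4, 61.1 and 45.6 CPM in cKO libraries. It fell by 0.51 (SE 0.10, adjusted p = 0.00397), and again no cKO library reached the control range. Ndufb5 was at 49.0, 43.3, 41.6 and 45.6 CPM in control and 36.7, 36.4, 38.7 and 33.0 CPM in cKO libraries, and fell by 0.31 (SE 0.08, adjusted p = 0.011) without overlap. Ndufa2, a thioredoxin-like subunit of the N module, was at 61.6, 60.0, 52.9 and 66.0 CPM in control and 47.3, 50.1, 49.6 and 48.2 CPM in cKO libraries. It fell by 0.30 (SE 0.08, adjusted p = 0.0111), the lowest control library lying just above the highest cKO library. Ndufa13 fell by 0.26, from 86.4, 85.0, 75.8 and 86.1 CPM to 72.8, 70.9, 66.8 and 67.6 CPM (adjusted p = 0.0104). Ndufb10, Ndufs3 and Ndufa7 fell by 0.22 to 0.25, and of the 8 fits that each left out a library, 6 did not call Ndufs3 and 5 did not call Ndufa7.

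The day 0 and day 3 cultures are separate sets of samples. Of the 29 members called at day 0 and the 12 called at day 3, 2 rose in both, Ndufaf2 among them, 8 fell in both (Ndufa2, Ndufa6, Ndufa7, Ndufa13, Ndufb5, Ndufb10, Ndufb11 and Ndufs3) and none was called in opposite directions. These 10 are 34.5% of the day 0 calls and 83.3% of the day 3 calls. Over all genes, 4979 were called in the same direction on both days, 49.7% of the day 0 calls and 74.4% of the day 3 calls, so shared calls are common in these cultures and nothing particular to the members is read from them. The genotype effects themselves were compared in a fit of all 14 cultures, where 1 of 47 members differed between the days, against 16.8% of the 14909 genes tested (9.94% with a higher and 6.89% with a lower effect at day 3). That member was Ndufb7, at -0.07 at day 0 and 0.27 at day 3, a difference of 0.33 (SE 0.10, adjusted p = 0.0468). The call was lost in 13 of its 18 alternative settings.

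**Figure D2:**
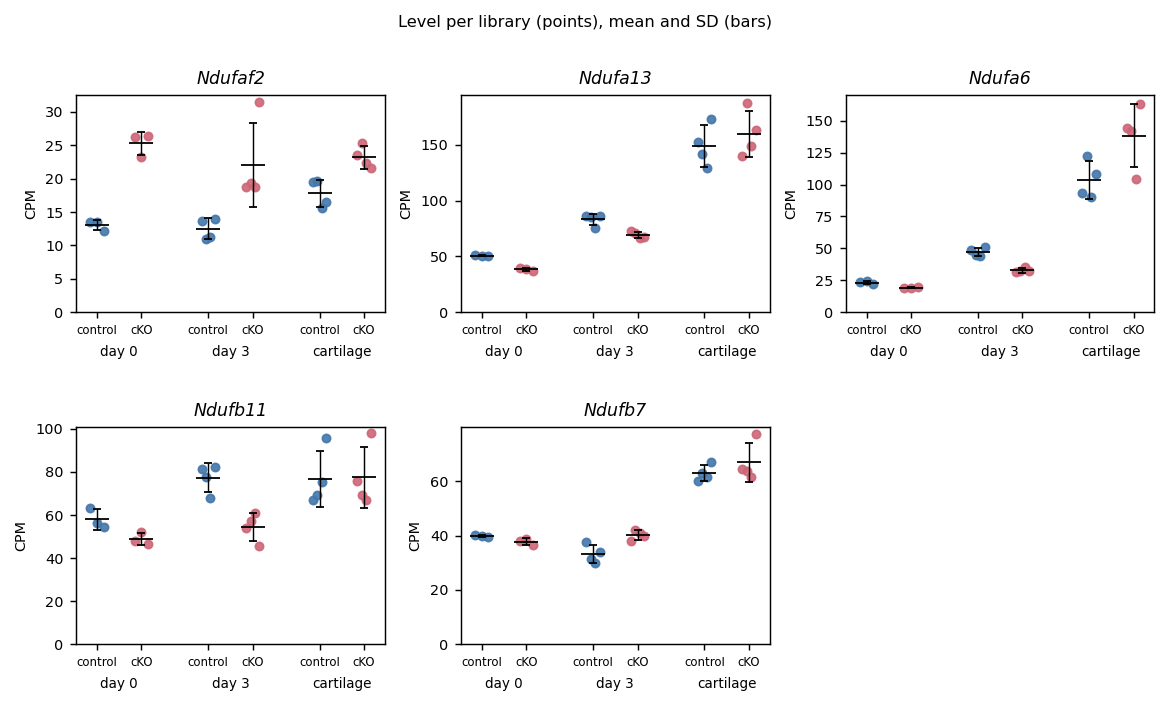
CPM (vertical axis, from 0) of 5 members in each library of the 6 groups, with the mean and SD as bars. Ndufaf2 lies higher in cKO than in control at day 0 and day 3, Ndufa13, Ndufa6 and Ndufb11 lie lower, and Ndufb7 differs at day 3. In cartilage the groups overlap for all but Ndufaf2.

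From day 0 to day 3 the treatment and the deposited table changed as well, and their shares in a change with time cannot be told apart. In control cultures 12 members rose and 11 fell (48.9%), against 56.9% of all genes (28.1% up and 28.8% down). In cKO cultures 10 rose and 7 fell, against 62.2% of all genes (32.4% up and 29.8% down). Ndufa6 rose most among the called members in control cultures, by 0.92 on the log2 scale (SE 0.07, adjusted p = 3.54e-07), and by 0.64 in cKO cultures. Ndufv3, Ndufa13 and Ndufaf3 rose by 0.58 to 0.68 in control and by 0.73 to 0.85 in cKO cultures. Ndufaf4 fell most in both, by 0.90 in control and 0.78 in cKO cultures. Ndufv1 fell by 0.51 in control and by 0.24 in cKO cultures. Ndufa6, Ndufv3, Ndufa13 and Ndufaf3 thus rose from day 0 to day 3 in both genotypes and were lower in cKO at day 0.

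In cartilage the members leaned the other way, and few passed the test. Of 45 members tested, 2 were higher in cKO, Ndufaf4 and Ndufb9, and 0 were lower (4.44% called, against 6.19% of 8793 genes, 3.15% higher and 3.04% lower). At an unadjusted p under 0.05 in edgeR there were 7, all higher. The share of all genes at that threshold was not counted, so nothing is read from this number. DESeq2 called 0. The log2 fold change was positive in 31 of 45, with a median of 0.09 against 0.01 over all genes. The libraries did not overlap for 7 members (6 higher and 1 lower), and for 13.5% of all genes (7.12% higher and 6.4% lower). The median SE was 0.154. All control libraries lay in one library pool and all cKO libraries in the other, so pool and genotype cannot be told apart here. Markers of several cell types were lower in cKO cartilage: chondrocyte markers summed to between 59206 and 89621 CPM in control libraries and between 26330 and 55164 CPM in cKO libraries, with 2 of 7 called lower. All 3 osteoclast markers tested and 2 of 3 blood and immune markers were called lower too. Skeletal muscle markers summed to more in cKO, 0.85 to 4.12 CPM in control and 4.31 to 28.0 CPM in cKO libraries, and 0 were tested. Their part in the values of the members was not tested. The cartilage libraries read the 3′ ends of transcripts, so the level of a gene is not compared between the cartilage and culture tables.

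Ndufaf4 was at 34.5, 40.1, 33.9 and 32.4 CPM in control and 55.4, 47.2, 50.9 and 48.2 CPM in cKO cartilage. Its log2 fold change was 0.52 (SE 0.15, adjusted p = 0.0497), with no overlap between the groups, and it lies at the threshold: 12 of 14 alternative settings did not call it. Ndufb9, an accessory subunit of the distal membrane arm, was at 96.8, 78.5, 92.6 and 99.9 CPM in control and 118.4, 132.9, 133.8 and 122.3 CPM in cKO cartilage. It was higher by 0.46 (SE 0.13, adjusted p = 0.0431), every cKO library lay above every control library, and 11 of 14 alternatives did not call it. At day 0 the same gene was at 65.1, 63.6 and 63.5 CPM in control and 57.6, 61.3 and 55.3 CPM in cKO libraries and fell by 0.14 (adjusted p = 0.0165). Both members called in cartilage had thus fallen at day 0, though neither fall was called with all 14 cultures in 1 fit. The fall of Ndufb9 was not called in 2 of its 11 alternative settings. They were not called at day 3, where Ndufaf4 was at -0.07 and Ndufb9 at 0.04, and the difference between culture and cartilage was not tested.

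The 7 assembly factors tested in cartilage all had positive values, as did 51% of all genes. Their median was 0.41, though only Ndufaf4 passed the test. Ndufaf3 was at 9.01, 6.83, 6.42 and 8.75 CPM in control and 15.1, 15.7, 10.7 and 10.3 CPM in cKO cartilage, from 7 to 18 counts a library. Its log2 fold change was 0.69 (SE 0.27, adjusted p = 0.15), not called although the groups did not overlap. Ndufaf1 was at 0.51, Ndufaf8 at 0.41, Ndufaf5 at 0.38 and Ndufaf7 at 0.11, none of them called. Ndufaf1 held 7 to 14 counts a library, and Ndufaf7 changed sign in 3 of 14 alternative settings. Ndufv2, a core subunit of the N module, was at 0.47 with an adjusted p of 0.051. In the membrane arm near the Q module the median was 0.02, and in the Q module 0.00281.

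The 2 deposited cartilage tables gave different values for Ndufaf2. In the whole-number table it was at 19.5, 19.6, 15.6 and 16.5 CPM in control and 23.5, 25.4, 22.3 and 21.5 CPM in cKO libraries, from 17 to 32 counts each. These gave a log2 fold change of 0.38 (SE 0.19, adjusted p = 0.269), not called although the groups did not overlap. In the deposited table of estimated counts for the same libraries it held 40, 36, 37 and 47 counts in control and 1366, 1383, 958 and 1265 counts in cKO, a log2 fold change of 5.20 (adjusted p = 2.80e-11). Of 45 members compared between these tables by their mean log2 difference, Ndufaf2 was the only one that differed by over 0.5. Among 8548 genes with a mean of 10 or more counts in both tables, 9 differed at least as much as Ndufaf2, itself included, and 40 differed by over 1. The cause was not tested. The culture tables hold estimated counts too, so the rise of Ndufaf2 in culture rests on that kind of count.

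The related genes Ndufa4 and Ndufa4l2 differed in pattern. Ndufa4 was at 93.3, 90.7 and 91.0 CPM in control and 87.5, 80.6 and 85.9 CPM in cKO libraries at day 0, a fall of 0.11 (SE 0.04, adjusted p = 0.0211) without overlap. At day 3 it was at 111.8, 83.6, 73.9 and 100.5 CPM in control and 80.6, 84.3, 87.7 and 86.7 CPM in cKO libraries, and in cartilage at 61.4 to 78.3 and 70.6 to 78.5 CPM, with overlap and no call in either. Ndufa4l2 was at 3.96, 4.63 and 4.41 CPM in control and 2.63, 2.82 and 1.30 CPM in cKO libraries at day 0. It fell by 0.96 on the log2 scale (SE 0.24, adjusted p = 0.00689), the largest fall among the members, with no overlap. Fitted with all 14 cultures this fall was not called (log2 fold change -0.95, adjusted p = 0.196). At day 3 Ndufa4l2 was at 2.81, 7.13, 7.06 and 8.31 CPM in control and 16.6, 8.93, 18.1 and 2.45 CPM in cKO libraries. Here 3 cKO libraries lay above all control libraries and cKO replicate 4 below them all. The log2 fold change was 0.86 (SE 0.56, adjusted p = 0.235), and without cKO replicate 4 it was 1.18 (adjusted p = 0.0148). In cKO cultures it rose from day 0 to day 3 by 2.25 (SE 0.56, adjusted p = 0.0034), against 0.45 in control cultures, not called. The difference between these, 1.80 (SE 0.75), was not called either (adjusted p = 0.121). In cartilage Ndufa4l2 was at 138.8, 145.0, 171.5 and 198.2 CPM in control and 194.8, 153.9, 120.4 and 203.3 CPM in cKO libraries. The groups overlapped, and the log2 fold change was 0.05 (adjusted p = 0.893). Shmt2, an enzyme of mitochondrial serine metabolism whose gene overlaps it on the opposite strand (mean log2 CPM 8.56 at day 0), fell at day 0 by 0.70 and at day 3 by 0.61.

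**Figure D3:**
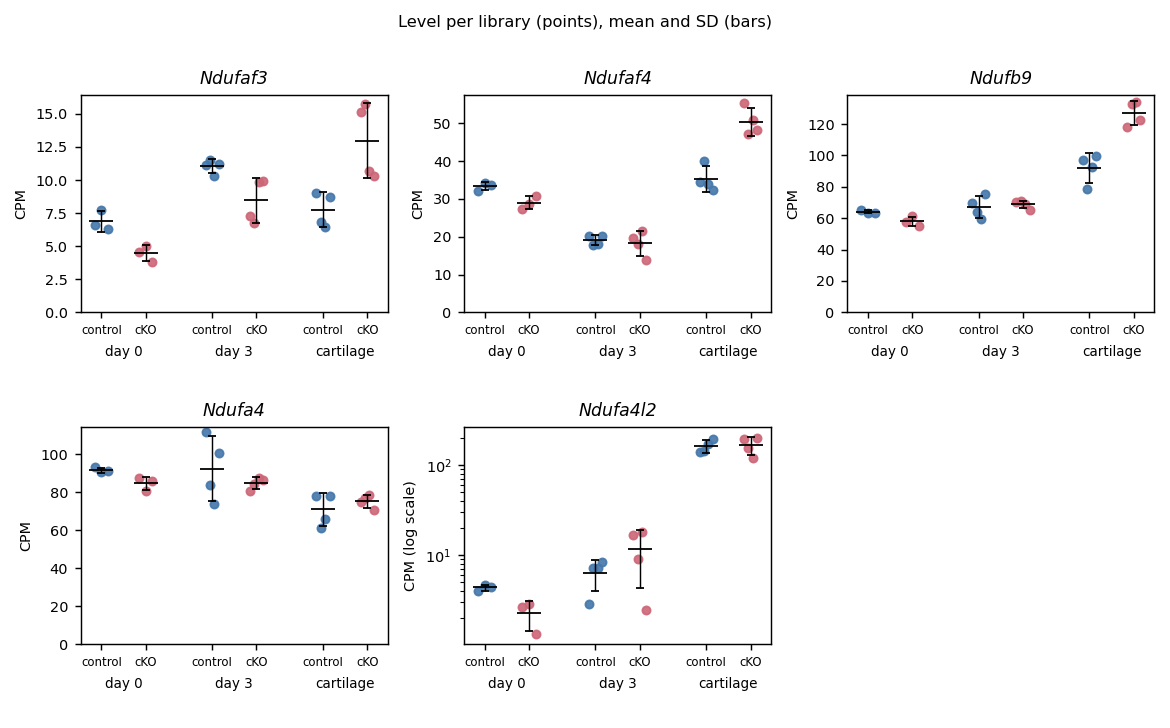
CPM (vertical axis; log scale for Ndufa4l2, from 0 otherwise) of 5 members in each library of the 6 groups, with the mean and SD as bars. Ndufaf3, Ndufaf4 and Ndufb9 are lower in cKO at day 0 and higher in cKO cartilage, and Ndufa4l2 has 3 cKO libraries above and 1 below the control libraries at day 3.

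The levels of the members differed widely. TPM are counts divided by exon length and scaled to a common total. The length covers all annotated exons of a gene together, 572 bases for Ndufa2 and 8086 for Ndufs1. The order of the members therefore depends on the annotation as well as on their levels. In control cultures at day 0 Ndufa2 stood highest at 366.1 ± 9.89 TPM (SD, n = 3). Ndufa4 followed at 243.4 ± 2.498 TPM and Ndufb4c at 238.2 ± 11.5 TPM. Both of the latter and Ndufa1, at 237.6 ± 3.95 TPM, did not differ beyond their spread. The peripheral core subunits Ndufv2 and Ndufs1 were at 112.5 ± 0.805 and 39.4 ± 1.499 TPM. TPM are not scaled by TMM factors, and not every fall in CPM was seen in them. In cKO cultures at day 0 Ndufa4 was at 243.2 ± 10.7 TPM, close to control. Ndufv2, whose change in CPM was not called, was higher, at 119.5 TPM. Ndufa13 stayed lower, at 148.9 TPM in control and 122.4 TPM in cKO cultures. How many falls remain in TPM was not counted. All 7 assembly members other than Ndufaf8, which was at 36.6 TPM, were at 13.9 to 31.4 TPM. Ndufa11b and Ndufs6b had at most 2 counts in any culture library and were not tested, and Ndufs6b and Ndufaf6 were not tested in cartilage.

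The genes of complex I encoded in mitochondrial DNA all had positive log2 fold changes in both cultures, where most nuclear members had negative ones. At day 0 6 of 7 mt-Nd genes rose (33% of all genes did), with a median log2 fold change of 0.24, while the summed nuclear members were lower. The control libraries held 5214, 5759 and 5893 CPM of mt-Nd genes in sum and the cKO libraries 6641, 6243 and 7299 CPM, without overlap. At day 3 3 of 7 rose (25.5% of all genes did), mt-Nd2 by 0.54, mt-Nd1 by 0.35 and mt-Nd4 by 0.32. The mt-Nd sums were 6804 to 7626 CPM in control and 8212 to 10606 CPM in cKO libraries, highest in cKO replicate 4. The summed nuclear members overlapped between the genotypes that day. In cartilage 2 of the 5 tested rose (3.15% of all genes did), mt-Nd6 by 0.75 and mt-Nd5 by 0.67, and 0 fell in any setting. All mitochondrial genes took a share of 1.55 to 1.72% of the counts of control libraries at day 0 and 1.86 to 2.14% of those of cKO libraries, and at day 3 2.13 to 2.32% against 2.65 to 2.82%. For cartilage the share depended on the kind of count. Whole-number counts put control libraries between 6.22 and 14.7% and cKO libraries between 9.43 and 11.8%, with overlap. The overlap came from control replicate 3, at 14.7%, as the next control library was at 8.41%. Estimated counts of the same libraries put control between 3.855 and 4.47% and cKO between 4.562 and 4.929%, without overlap. The part of the mitochondrial genes in the change of the members was not tested.

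**Figure D4:**
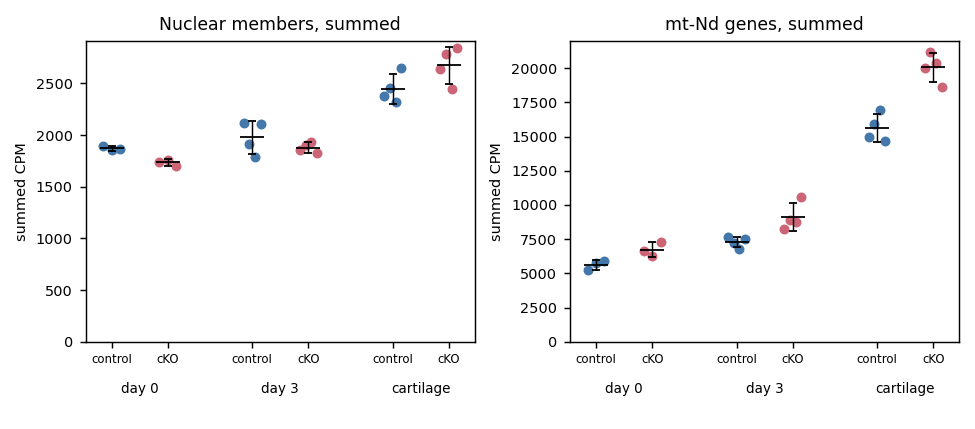
Summed CPM (vertical axis, from 0) of the nuclear members (left) and of the mt-Nd genes (right) in each library, with the mean and SD as bars. At day 0 the nuclear sum was lower and the mitochondrial sum higher in every cKO library than in every control library.

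Other genes of the pathway gave the following counts. Of 11 assembly factors without an Nduf symbol, 4 fell and 1 rose at day 0, 4 fell at day 3, and edgeR called none of 6 tested in cartilage, where 0 had an unadjusted p under 0.05. Foxred1 fell by 0.42 at day 0 and 0.39 at day 3, Timmdc1 by 0.32 and 0.33, and Dmac1 by 0.23 and 0.44, and Aifm1, an oxidoreductase that helps to import respiratory chain subunits, rose by 0.14 at day 0. Of the 4 genes of complex II, 3 fell at day 0 (median -0.14). Of 41 genes of complexes III to V tested, 18 fell and 4 rose at day 0 (median -0.09), and 12 fell and 4 rose at day 3 (median -0.08). Of 78 genes of the mitochondrial ribosome, 34 fell and 14 rose at day 0 (median -0.08), and 12 fell and 5 rose at day 3 (median -0.01). In cartilage 3 of 67 genes of the mitochondrial ribosome rose and 0 fell, 47 had positive values and the median was 0.15, a lean in the same direction as that of the members. Of 37 genes of complexes III to V tested there, edgeR called 0, and the median was -0.0028. At an unadjusted p under 0.05 there were 3, with no count over all genes to set them against. Against 64.5% of all genes called at day 0, these lists had 45.5, 75, 53.7 and 61.5% called, each with a median below 0.

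Among the 40 members with a promoter entry, the 5 with the NRF1 consensus (Ndufa6, Ndufa11, Ndufaf4, Ndufaf5 and Ndufb4) counted 3 that fell and 0 that rose at day 0, and the other 35 counted 19 that fell and 2 that rose. Ndufaf2 and Ndufa13 held none of the 4 motifs searched. These counts describe letters and calls, with no test.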

How the data were processed

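Messenger RNA was measured in 22 mouse samples, grouped by their labels. Per the labels' protocols, culture libraries used a directional kit and cartilage libraries BRB-seq, a barcoded 3′ method with molecular identifiers. For the cultures the authors deposited expected (estimated) counts of each gene, with separate tables for the days, and for cartilage both whole-number counts and estimated counts. The submitters' processing notes name GRCm38, UMI-tools 1.1.1, Trim Galore 0.6.7, HISAT2 2.2.1, featureCounts 2.0.1 and DESeq2 1.34.0 with no role or order. Estimated counts were rounded. Here edgeR 4.0.16 in R 4.3.3 was used (TMM scaling, filterByExpr at 10 counts in enough libraries and 15 in total, quasi-likelihood test), fitted on each whole table with Benjamini-Hochberg adjustment over all genes tested. Every adjusted p is from this fit unless another tool is named. Day 0, day 3 and cartilage were fitted separately, cartilage with sex as a covariate, and the 14 cultures in 4 groups for changes with day. CPM are scaled by TMM factors, and SE is the absolute log2 fold change over the square root of F. The fits were also run on simulated data, with larger changes than those of most members and the same spread for every gene. That run therefore does not cover changes as small as most of those given here. Symbols of 34582 of 34866 culture identifiers were matched. Nothing says that replicates are separate animals or cultures beyond the words biological replicate, so p-values measure the spread between these samples. Alternatives were DESeq2 1.42.0, its size factors, no filter, a replicate block, each library left out, 1 fit of all cultures, no sex term and the estimated cartilage counts. The members, lists, modules and rules were chosen with earlier results of these data known. Values per library were taken for 16 members: up to 4 called in each direction with the largest change per comparison, those called in opposite directions or between days, and Ndufa4 and Ndufa4l2. Of these, 1 is counted but not reported here. The comparison of both cartilage tables and the promoter counts were chosen after seeing the data, and the spelling of the NRF1 and YY1 motifs was changed once after a first count. All deposited per-sample columns were mapped, leaving 0 unused.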

Additional observations from a re-analysis of the deposited data

Results flagged for a closer look

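Among 64 groups of 4 libraries (16 members in the day 3 and cartilage groups), 3 held a library far from the others, where chance alone marks about 1 group in 20. Ndufaf2 in day 3 cKO cultures was at 31.5 CPM in replicate 4, against 19.3 CPM in the next library. Ndufa13 in day 3 control cultures was at 75.8 CPM in its lowest library, against 85.0 CPM in the next. Ndufb5 in control cartilage was at 89.6 CPM in its highest library, against 78.5 CPM in the next.

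The genotype effect on Ndufb7 differed between day 3 and day 0 by 0.33 on the log2 scale, by the interaction term of the 14-culture fit. Its control and cKO libraries lay apart in opposite directions on these days, at 0.27 at day 3 and -0.07 at day 0, the latter not called. The libraries of other members lay apart in opposite directions in culture and in cartilage. Ndufaf3 was at 0.69 in cartilage, -0.63 at day 0 and -0.38 at day 3, and was called at day 0 only. Ndufaf4 was at 0.52 in cartilage and -0.20 at day 0, and Ndufb9 at 0.46 in cartilage and -0.14 at day 0. Over all genes tested, the libraries did not overlap for 70.3% at day 0, 47.9% at day 3 and 13.5% in cartilage. The difference between culture and cartilage was not tested.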

How the results depend on the processing

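The counts of members called at day 0, at day 3 and with day kept their size under most alternatives. At day 0, 15 members were called when all 14 cultures shared 1 fit, in place of 29, and 15 members were called under every alternative run there. At day 3, 7 of the 12 called members stayed called under every alternative. No called member changed sign under any alternative. In cartilage 2 members became 1 with DESeq2 size factors, 0 with DESeq2, 0 without a filter on low counts and 0 to 1 with 1 library left out, and 3 without the sex term and 3 in the estimated counts. For the difference between days the count of 1 became 2 with DESeq2, 0 without a filter and 0 to 3 with 1 library left out, with 3 reached without day 3 cKO replicate 4. The value of Ndufa4l2 in cartilage turned to -0.0068 in the estimated counts and ran from -0.080 to 0.23 with 1 library left out (-0.080 without cKO replicate 1, -0.067 without cKO replicate 4 and -0.019 without control replicate 1). The difference between days of Ndufa4 ran from -0.126 to 0.076 with 1 library left out, turning to 0.076 without day 3 control replicate 1 and 0.013 without day 3 control replicate 4. The cause was not tested. Cartilage libraries held at most 1888896 counts, and 45 members passed the filter there; what depth adds to the SE was not tested.

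With the replicate number as a block, 7 members were called at day 3, 0 in cartilage and 0 between days, and 29 at day 0. Same-numbered libraries did not deviate together: the correlations were -0.05, -0.06 and 0.14 at day 0, -0.15, -0.09, -0.10 and -0.06 at day 3 and 0.27, 0.08, -0.08 and 0.12 in cartilage. The numbers were therefore not taken as pairs.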
